A study of Mus musculus with 5 samples.

Results

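The genes described here are 30 genes of fatty acid oxidation and ketone body metabolism, followed in mouse hepatocytes between feeding and 24 h without food. They were chosen by symbol, for their known roles, out of 32285 genes in the deposited matrix. All 30 were found, each once, and all 30 carried the same symbol in GENCODE M21 for the mouse build GRCm38. By role they comprised 18 genes of mitochondrial oxidation, 7 peroxisomal genes, 2 ketone body enzymes, 2 genes of fatty acid uptake and activation, and the regulator Ppara.

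Fatty acids enter mitochondria as carnitine esters through a shuttle whose outer membrane enzyme, carnitine palmitoyltransferase, sets the rate of entry. Inside, a cycle of dehydrogenation, hydration, a second dehydrogenation and thiolysis shortens the chain and passes electrons through the electron transfer flavoprotein to the respiratory chain. In the liver the acetyl-CoA formed is turned into ketone bodies that other tissues burn during fasting. Very long, branched and dicarboxylic chains are first shortened in peroxisomes. The nuclear receptor PPARα, encoded by Ppara, is activated by fatty acids and induces many genes of both compartments in fasted liver.

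The samples were hepatocytes isolated from the liver of male WT C57BL/6J mice on normal chow, all trained for 3 days with a 16 h overnight fast and 8 h of daytime feeding. The fed (0 h) group was taken after 4 h with food and drinking water holding 20% sucrose, and the fasted groups were taken 4, 8, 16 and 24 h after food and sucrose water had been removed. A single library of the 10x Genomics Single Cell 3' v3 chemistry stands for each time, and how many animals it pooled is unknown here. The clock hours were 13, 17, 21, 5 and 13 in time order, so that effects of fasting and of the hour cannot be told apart except between 24 h and 0 h. With no replicates, no test was possible: each difference describes 2 libraries, all intervals are exact 95% intervals that cover counting error only, and the 4 comparisons with 0 h share the fed library.

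Hepatocytes were barcodes with at least 1000 UMIs (unique molecular identifiers, 1 per captured transcript), at least 500 genes and 2 to 30% of UMIs from mitochondrial genes. In time order these were 7631, 4559, 2704, 9077 and 4550 cells, and 33461812 to 45503295 nuclear-encoded UMIs per library lay behind the levels. Each library held 10000 barcodes, 260 barcode sequences occurred in more than 1 library, and 73 of these were among the hepatocytes. Hepatocyte markers summed to 96940 CPM or more in each library. Of the markers of other cell types only Sox9 (16.6 to 70.4 CPM) and Alas2 (20.7 to 67.05 CPM) passed 10 CPM. The marker sums were 3.89 to 17.5 CPM for endothelial cells, 0.059 to 4.63 CPM for Kupffer cells and 1.32 to 7.19 CPM for stellate cells. Defining markers such as Krt19, Cd3e and Clec4f were at 0 in some libraries and at most 1.18 CPM in the others. Barcodes with under 2% mitochondrial UMIs were numerous at 4 h (5345) and 24 h (5400), against 2172, 576 and 234 at 0, 8 and 16 h, and were left out. These libraries therefore stand apart, and several results are given with other limits as well.

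Levels are UMIs summed over the hepatocytes of a library and scaled to 1000000 nuclear-encoded UMIs (CPM). Since the chemistry counts each transcript once at its 3' end, CPM is not divided by length, and levels are compared between libraries, not between genes. In the fed library 29 of the 30 genes were at 50 CPM or more. Pex11a, at 34.1 CPM, passed that minimum only through the fasted libraries. The highest level of 17 genes was at 24 h, of 10 genes at 16 h and of 3 genes (Acads, Acaa2 and Pex11a) at 8 h. No gene was highest at 0 or 4 h.

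**Figure D1:**
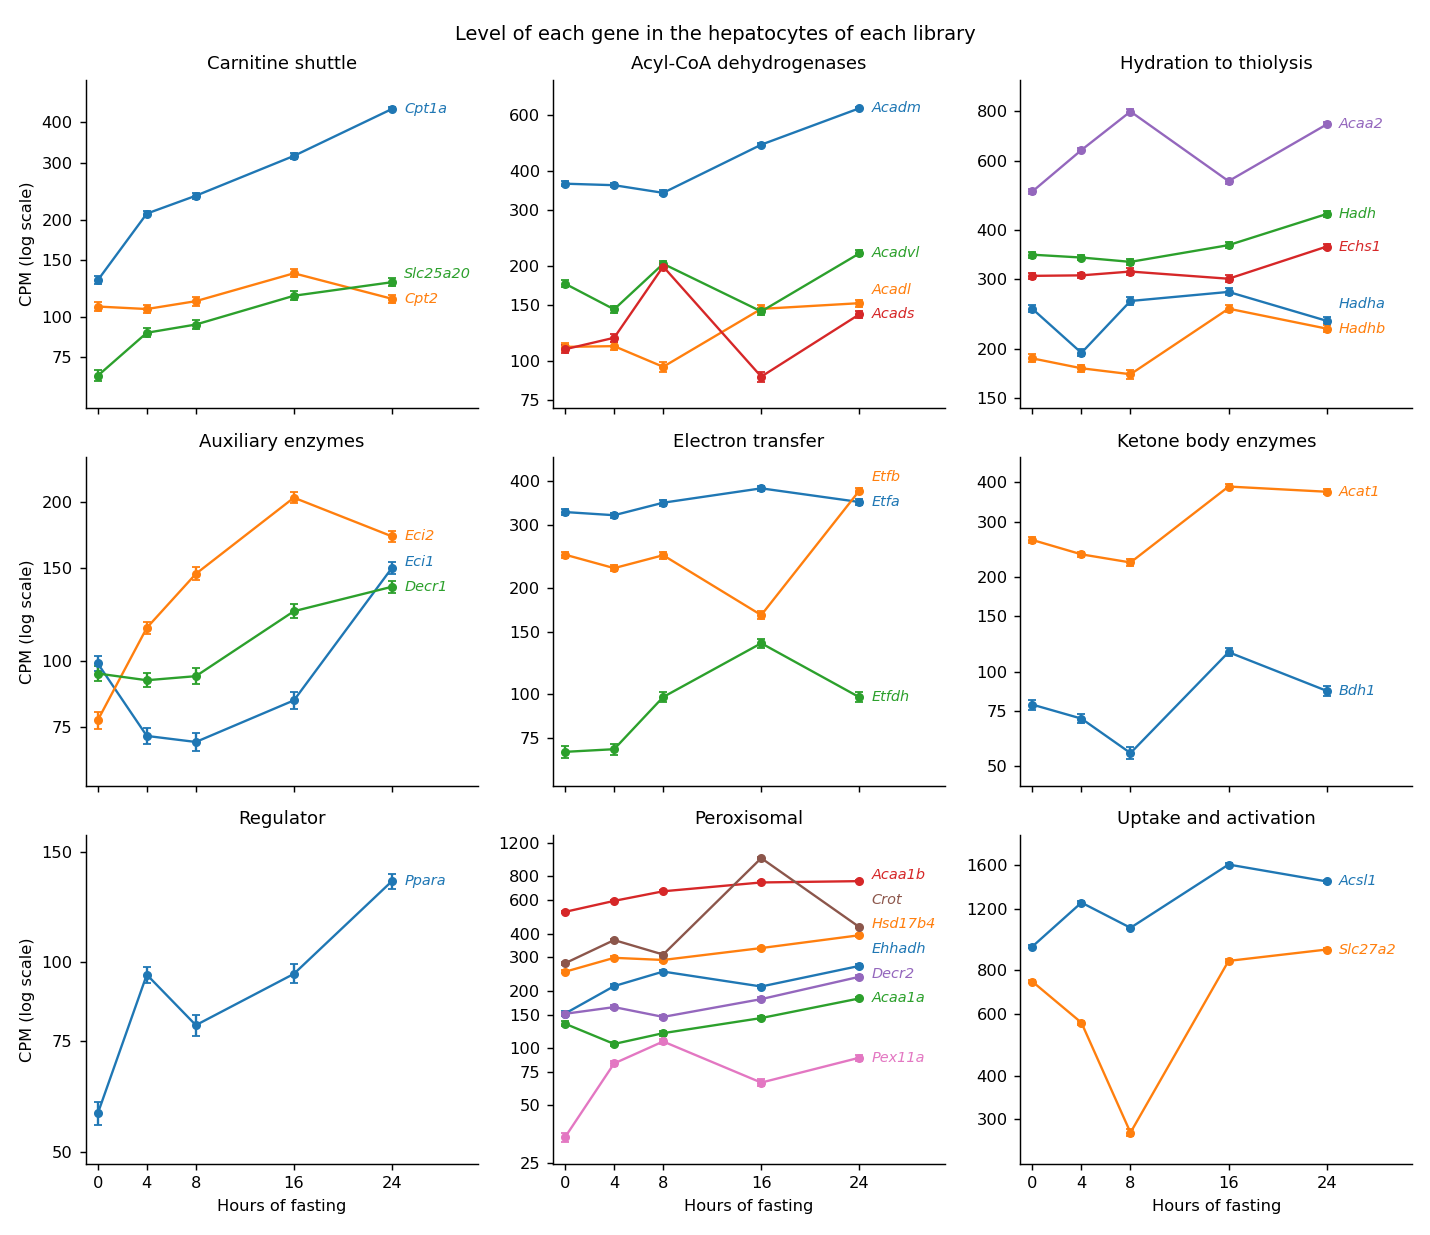
Level in CPM (log axis) of each of the 30 genes against hours of fasting, 1 panel per role. Points are libraries and bars are exact 95% Poisson intervals for counting error; Cpt1a climbs at each step from 129.7 to 440.5 CPM, Crot peaks at 16 h with 999 CPM, and Slc27a2 dips to 275 CPM at 8 h.

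Relative to the fed library, the set differed little at first and stood higher at 16 and 24 h. The median log2 ratio over the 30 genes was 0.01, 0.08, 0.41 and 0.54 in the 4 h, 8 h, 16 h and 24 h libraries. Over all genes tested, those with 50 CPM or more in either library, it was -0.03, -0.04, 0.00 and -0.03 in the same order. The 16 and 24 h medians lay above those of all genes. The 4 h median depended on the processing: it was -0.12 with mitochondrial UMIs in the denominator, against -0.16 over all genes, and 0.25 as a mean of per-cell CPM, against -0.04. With cells of 0 to 30% mitochondrial UMIs it was 0.30, against -0.04 over all genes. Among the genes below fed at 4 h, Acaa1a, Decr1, Eci1 and Etfb were then above it, with log2 ratios of 0.09, 0.36, 0.38 and 0.54.

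At 24 h, 29 of the 30 genes were above the fed level by any amount, as were 48.4% of all genes tested. At 16 h the number was 25 (50.4% of all genes), at 8 h 18 (47.6%) and at 4 h 16 (48.2%). At least 1.5-fold higher than fed were 3 genes at 4 h, where 13.8% of all genes tested were called, and 6 genes at 8 h, against 18.1%. At these times the count was close to that background. At 16 h 8 genes were at least 1.5-fold higher, against 10.6% of all genes, and at 24 h 13 genes, against 17.1%. Only Slc27a2, at 8 h, was at least 1.5-fold lower than fed, where 16.3%, 23.1%, 13.2% and 20.2% of all genes were lower at 4, 8, 16 and 24 h. At least 2-fold higher were Pex11a at 4 h (5.85% of all genes) and at 8 h (8.07%). At 16 h Cpt1a, Eci2, Etfdh and Crot were (3.38%), and at 24 h Cpt1a, Eci2, Ppara and Pex11a (6.72%). With mitochondrial UMIs in the denominator 7 genes, in place of 13, were at least 1.5-fold higher at 24 h, against 14.5% of all genes.

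Scaling by TMM (trimmed mean of M-values) placed the median of all genes at 0.11, 0.15, -0.01 and 0.09 in time order. The count of genes at least 1.5-fold higher was then 5, 9, 8 and 18. Over all genes at 4 h, 18.3% were called higher and 11.7% lower with TMM, against 13.8% and 16.3% on the CPM scale. At 8 h the split was 25.2% and 17.4%, against 18.1% and 23.1%. At 16 and 24 h 9.99% and 20.8% of all genes were called higher with TMM.

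**Figure D2:**
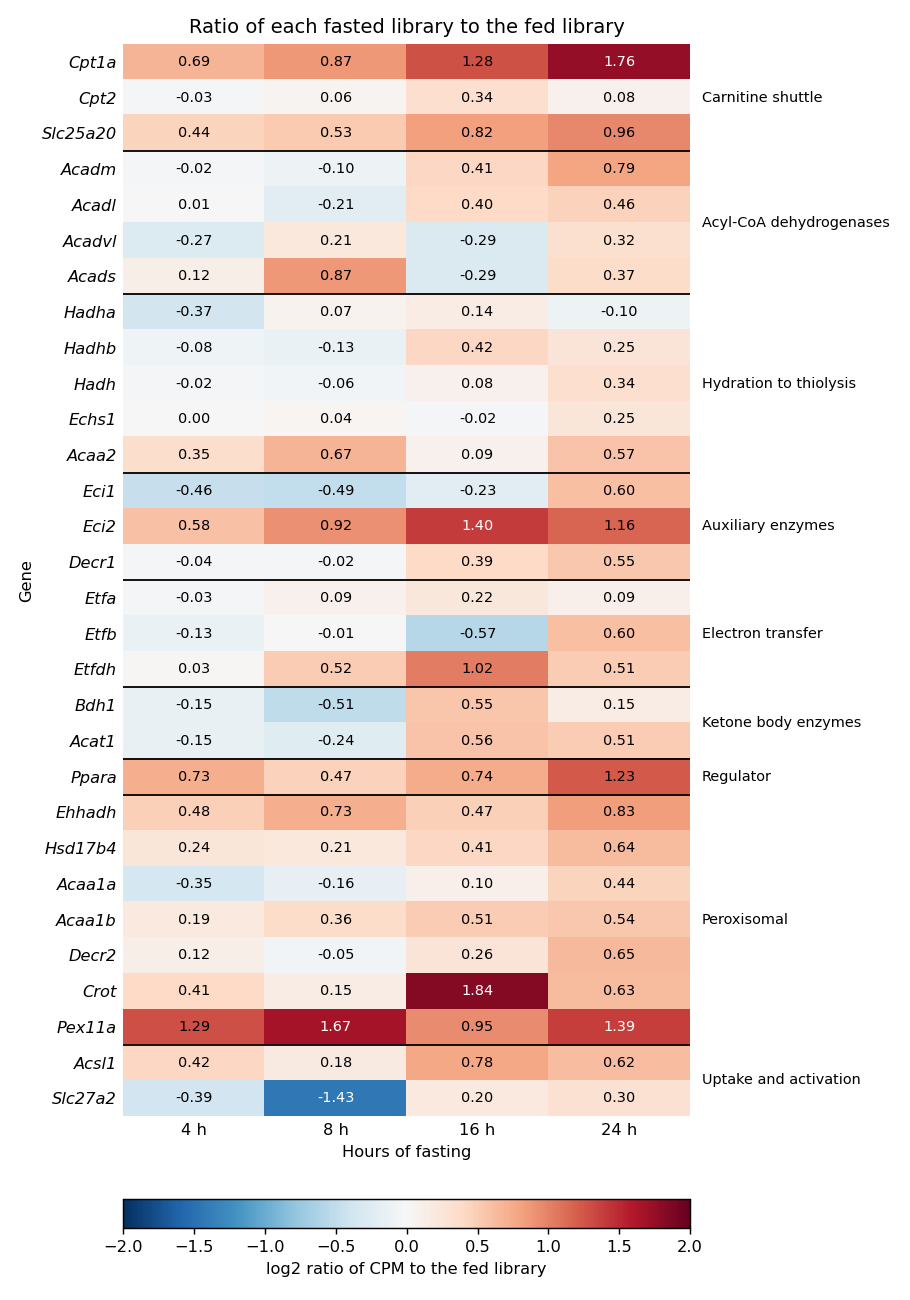
log2 ratio of CPM of each fasted library to the fed library for the 30 genes, grouped by role, with red for higher and blue for lower than fed. The 24 h column is red for 29 of 30 genes, and the 4 h column is mixed.

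Of the 30 genes, 12 were above fed at each of the 4 fasted times and none was below fed at all of them, against 18.4% and 28.5% of the 2746 genes that passed the minimum in all 4 comparisons. Cpt1a and Pex11a were at least 1.5-fold higher at all 4 times (1.93% of those genes). The 4 h ratio of Cpt1a was under 1.5-fold with mitochondrial UMIs in the denominator (0.56), as a mean of per-cell CPM (0.56) and with cells of 0 to 30% mitochondrial UMIs (0.53). Cpt1a, Slc25a20 and Acaa1b were higher in each library than in the one before (0.473%). Of these, only Cpt1a was so with cells of 0 to 30% mitochondrial UMIs. In 13 genes no fasted library differed from fed by 1.5-fold or more (41.0%), and in 7 genes the highest library was within 1.5-fold of the lowest (29.5%). Among the 13, Acadl, Decr1, Acat1, Acaa1a and Acaa1b passed 1.5-fold at 24 h with cells of 0 to 30% mitochondrial UMIs.

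Promoter windows from RefSeq (GRCm38.p6) were available for 26 of the 30 genes, in 28 windows, and the 250 bases before the RefSeq start were searched. Hadha and Hadhb, which encode the 2 subunits of the mitochondrial trifunctional protein, lie head to head on chromosome 5 with 272 bases between their RefSeq starts. Their windows are therefore nearly the same sequence on opposite strands. GENCODE M21 sets these starts closer together, with Hadha (minus strand) starting at 30155162 and Hadhb at 30155248. The DR1 element, to which PPARα binds with its partner RXR, was searched as a direct repeat of AGGTCA with 1 free base between the copies, on both strands and with at most 2 mismatches in its 12 letters. It matched in 2 of the 28 windows, those of Echs1 and Etfa, and in 3.24% of 32851 windows of all genes. The cAMP response element (TGACGTCA, exact) and the glucocorticoid response element (AGAACA and TGTTCT with 3 free bases between, at most 2 mismatches) matched in none of the 28, and in 1.55% and 1.56% of all windows. A match is a description of letters, and these windows do not reach introns beyond the RefSeq start or distant elements. Some windows overlap the gene spans of GENCODE M21, which can begin further upstream: that of Cpt1a lies wholly within its span and that of Crot partly. Whether such a window is upstream of the start in use in these cells was not tested. The sequences below are those of the gene with the largest ratio at 24 h (Cpt1a), the gene with the largest ratio at 16 h (Crot), the shared Hadha and Hadhb interval, and the pair with a match, whose DR1 letters are in capitals. They are written 5′ to 3′ on the strand of the gene.
Cpt1a, chr19:3323051-3323300, plus strand: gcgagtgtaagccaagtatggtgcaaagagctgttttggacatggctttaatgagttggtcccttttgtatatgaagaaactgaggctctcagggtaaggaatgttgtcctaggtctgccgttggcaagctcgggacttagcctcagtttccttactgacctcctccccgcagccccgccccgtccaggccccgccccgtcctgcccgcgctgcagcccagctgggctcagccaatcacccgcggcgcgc
Crot, chr5:8997147-8997396, minus strand: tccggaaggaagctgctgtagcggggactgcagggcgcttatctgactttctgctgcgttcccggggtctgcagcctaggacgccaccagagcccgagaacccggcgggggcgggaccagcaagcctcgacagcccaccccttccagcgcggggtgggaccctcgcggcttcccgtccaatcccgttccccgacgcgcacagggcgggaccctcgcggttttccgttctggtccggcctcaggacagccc
Hadha, chr5:30154981-30155230, minus strand: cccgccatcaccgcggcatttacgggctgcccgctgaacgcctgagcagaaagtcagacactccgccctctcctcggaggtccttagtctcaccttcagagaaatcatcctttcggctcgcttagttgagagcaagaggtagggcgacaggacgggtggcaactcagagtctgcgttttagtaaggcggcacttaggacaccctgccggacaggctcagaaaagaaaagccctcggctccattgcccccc
Echs1, chr7:140116422-140116671, minus strand: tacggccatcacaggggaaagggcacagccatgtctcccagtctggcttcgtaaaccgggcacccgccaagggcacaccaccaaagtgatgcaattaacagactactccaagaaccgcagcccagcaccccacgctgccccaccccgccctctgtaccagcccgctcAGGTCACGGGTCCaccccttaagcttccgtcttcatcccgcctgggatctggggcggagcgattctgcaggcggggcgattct
Etfa, chr9:55512244-55512493, minus strand: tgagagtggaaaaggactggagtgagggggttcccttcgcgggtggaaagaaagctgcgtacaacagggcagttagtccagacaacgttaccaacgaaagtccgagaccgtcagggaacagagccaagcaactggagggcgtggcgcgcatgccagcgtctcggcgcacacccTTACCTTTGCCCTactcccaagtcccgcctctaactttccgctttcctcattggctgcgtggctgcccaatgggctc
The genes with a match, Echs1 and Etfa, had the narrowest ranges of the 30 over the 5 libraries, 1.21-fold and 1.19-fold between the lowest and the highest.

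The carnitine shuttle held the gene with the largest ratio at 24 h. Cpt1a (chr19:3322334-3385733), the liver form of the rate-setting outer membrane enzyme, was at 129.7, 209, 237, 315 and 440.5 CPM at 0, 4, 8, 16 and 24 h. Its level was higher in every later library, and the log2 ratio to fed was 0.69 (95% interval 0.64 to 0.74) at 4 h and 1.76 (95% interval 1.72 to 1.81) at 24 h, a 3.40-fold difference. Slc25a20, the carrier that exchanges acylcarnitine for carnitine across the inner membrane, was at 65.6, 89.1, 94.5, 116 and 128 CPM. It too was higher in each later library, reaching 1.95-fold at 24 h. With cells of 0 to 30% mitochondrial UMIs Slc25a20 was lower at 24 h than at 16 h. In the barcodes under 2%, left out here, it was at 36.1 CPM at 24 h. Cpt2, which returns the acyl group to coenzyme A inside, was at 107.5, 106, 112, 136 and 114 CPM and stayed within 1.29-fold over the libraries. Of the 3 shuttle genes, 2 were at least 1.5-fold higher at 16 h, against 10.6% of all genes, and 2 at 24 h, against 17.1%.

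The 4 acyl-CoA dehydrogenases, which catalyse the first step of the cycle for chains of different length, did not share a time course. Acadm, for medium chains, was at 363.5, 359.5, 340.0, 483 and 630.1 CPM, with little difference between the first 3 libraries and 1.73-fold of fed at 24 h. Acads, for short chains, was at 109, 118, 199, 88.9 and 140.1 CPM, highest at 8 h and lowest at 16 h. Acadvl, for very long chains, was at 175, 145, 203, 143 and 218.5 CPM. Its highest and lowest libraries were the last and the 16 h library. Acadl, for long chains, was at 110.5, 111, 95.5, 146 and 152 CPM and was at most 1.38-fold of fed. At 24 h all 4 were above fed, and Acadm was the only one at least 1.5-fold higher. Acads and Acadvl thus rank the 8 h library above the 16 h library, whereas Acadm and Acadl rank it below.

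The 5 genes of hydration, second dehydrogenation and thiolysis differed least from fed at 24 h, with a median log2 ratio of 0.25. Hadha and Hadhb were at 252, 195, 264, 278.5 and 235 CPM and at 189, 178, 172, 252.5 and 225 CPM. The 4 h level was the lowest of the 5 for Hadha and the 8 h level for Hadhb. Hadh, the dehydrogenase for shorter chains, was at 346, 340.5, 332, 366 and 439 CPM, and Echs1, the short-chain enoyl-CoA hydratase, at 306, 307, 314, 301 and 363 CPM. Both were highest at 24 h, by 1.27-fold and 1.19-fold over fed. Acaa2, a mitochondrial thiolase, was at 501, 638, 799.6, 532 and 741.5 CPM. It peaked at 8 h with a log2 ratio of 0.67 (95% interval 0.65 to 0.70), the only ratio of at least 1.5-fold among these 5 genes. Both points depended on the lower limit for mitochondrial UMIs. In the barcodes under 2%, left out here, Acaa2 was at 1708, 553 and 1944 CPM at 4, 8 and 24 h. With cells of 0 to 30% its maximum was at 24 h, and it passed 1.5-fold at 4 and 24 h. Hadha at 24 h was the one gene of the 30 below fed at that time, with a log2 ratio of -0.10, or 0.02 with median-of-ratios scaling.

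Auxiliary enzymes rearrange the double bonds of unsaturated chains. Eci2, an enoyl-CoA isomerase, was at 77.3, 116, 146, 204 and 172 CPM. It was above fed throughout, by 2.64-fold at 16 h and 2.23-fold at 24 h. Eci1, the other isomerase, was at 99.05, 72.2, 70.3, 84.3 and 150.3 CPM, below fed at 4, 8 and 16 h and 1.52-fold of fed at 24 h. Decr1, the dienoyl-CoA reductase of mitochondria, was at 94.8, 92.1, 93.7, 124 and 138 CPM and did not reach 1.5-fold. With cells of 0 to 30% mitochondrial UMIs Decr1 passed 1.5-fold at 24 h. In the barcodes under 2%, left out here, it was at 156 CPM at 0 h and 328 CPM at 24 h. The Eci1 values depended on the lower limit for mitochondrial UMIs too. With cells of 5 to 30% the 24 h log2 ratio was 0.40 in place of 0.60, under 1.5-fold, and with cells of 0 to 30% the 4 h ratio was 0.38 in place of -0.46.

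Electrons from the dehydrogenases pass to the flavoprotein of Etfa and Etfb and on to Etfdh. Etfa was at 327, 320.4, 348, 382 and 349 CPM and Etfb at 248, 227, 247, 167 and 376 CPM. The subunits diverged at 16 h, where Etfa had its highest and Etfb its lowest level. At 24 h Etfb was 1.52-fold of fed, and with cells of 5 to 30% mitochondrial UMIs its log2 ratio was 0.40 in place of 0.60, under 1.5-fold. With cells of 0 to 30% it was 1.45 at 24 h, and 0.54 at 4 h in place of -0.13. Etfdh was at 68.6, 69.8, 98.1, 139 and 98.0 CPM and peaked at 16 h at 2.03-fold of fed.

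The ketone body enzymes among the 30 dipped before they stood higher. Bdh1, which reduces acetoacetate to β-hydroxybutyrate, was at 78.6, 71.0, 55.1, 115 and 87.0 CPM. Acat1, a mitochondrial acetoacetyl-CoA thiolase, was at 262, 236, 222.5, 388 and 373 CPM. Both were lowest at 8 h and highest at 16 h, and neither reached 1.5-fold of fed, with log2 ratios of 0.55 and 0.56 at 16 h. Slc16a1, a transporter of monocarboxylates outside the 30, was at 58.9, 38.0, 32.6, 69.6 and 26.8 CPM and was less than the fed level at 24 h by 2.20-fold. It does not stand for other ketone body genes: a list of 7 outside the 30 summed to 1839, 1387, 2118, 2521 and 2758 CPM in time order.

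Ppara itself was at 57.5, 95.5, 79.4, 95.8 and 135 CPM, with log2 ratios to fed of 0.73, 0.47, 0.74 and 1.23. It was at least 1.5-fold higher at 4, 16 and 24 h and 2.34-fold higher at 24 h. Among 12 other regulators, 7 were at 50 CPM or more in the 24 h or the fed library, of which 4 were at least 1.5-fold higher and 1 lower at 24 h, against 17.1% and 20.2% of all genes. Lpin1, a phosphatidate phosphatase and coactivator of PPARα, was at 182, 938, 1569, 126 and 363 CPM, and its relative Lpin2 at 83.6, 397, 404, 188 and 289 CPM. Both were highest at 8 h, and Lpin1 was below fed at 16 h. The coactivator gene Ppargc1a was at 24.2, 56.1, 35.4, 37.4 and 40.4 CPM, highest at 4 h, and passed the minimum only through that library. Foxa2, a transcription factor active in fasting liver, was at 106, 88.0, 32.3, 67.4 and 54.6 CPM, lowest at 8 h. None of these regulators had the time course of Ppara, whose maximum was at 24 h.

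Of the 7 peroxisomal genes, 6 were above fed at 4 h, with a median log2 ratio of 0.24, against 8 of 18 and -0.02 for the mitochondrial genes and 48.2% of all genes above fed. Of 15 other peroxisomal genes that passed the minimum, 9 were above fed at 4 h and 6 at 8 h, where 47.6% of all genes were, with medians of 0.01 and -0.06. At 16 and 24 h all 7 members were above fed, with medians of 0.47 and 0.64 against 0.28 and 0.49. Of the 7 peroxisomal genes, 2 were at least 1.5-fold higher at 16 h and 5 at 24 h, and of the 18 mitochondrial genes 4 and 6, against 10.6% and 17.1% of all genes. The summed level of the 7 peroxisomal genes was 1526, 1829, 1898, 2681 and 2362 CPM in time order. The difference between the compartments had no test.

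Crot (chr5:8966033-8997324), the carnitine octanoyltransferase that exports shortened chains from peroxisomes, had a single sharp maximum. It was at 279.7, 370.4, 311, 999 and 434 CPM, so that 16 h was 3.57-fold of fed, with a log2 ratio of 1.84 (95% interval 1.80 to 1.87). The other 4 libraries lay between 279.7 and 434 CPM, with the 24 h library at 1.55-fold of fed. The 16 h library also stood apart in acute-phase genes: Saa1 was at 386, 1148, 37.9, 4888 and 21.1 CPM and Saa2 at 219, 1086, 12.8, 4953 and 9.68 CPM. In the 4539 hepatocytes of this library with the smaller acute-phase share Crot was at 796 CPM, and in the other 4538 at 1168 CPM. The log2 ratio to fed was thus 1.51 in the first set of cells and 2.06 in the second. In the first set Saa1 and Saa2 were still above fed, at 702 and 651 CPM. A list of 10 dissociation stress genes summed to 561, 486, 313, 755 and 301 CPM in time order, also highest at 16 h, and its part in the Crot level was not tested.

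Pex11a, which promotes the growth and division of peroxisomes, had the largest ratios at 4 and 8 h. It was at 34.1, 83.2, 108.5, 66.0 and 89.1 CPM, and the ratio to the fed level of 34.1 CPM was 2.44-fold at 4 h and 3.18-fold at 8 h. The maximum at 8 h and the lower value at 16 h set it apart in shape from Crot. Ehhadh, the bifunctional hydratase and dehydrogenase of the inducible peroxisomal pathway, was at 152, 212, 253, 211 and 271 CPM. Hsd17b4, the bifunctional enzyme for branched chains, was at 252, 299, 291, 336 and 393 CPM. Both were above fed at all 4 times. Decr2, the peroxisomal dienoyl-CoA reductase, was at 152, 164.5, 146, 181 and 237 CPM and reached 1.56-fold at 24 h.

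The thiolase genes Acaa1a and Acaa1b are related copies on chromosome 9, at chr9:119339676-119350299 and chr9:119148023-119157093. Acaa1a was at 134.5, 105, 120.0, 144 and 183 CPM and Acaa1b at 521, 595, 668.5, 744 and 756 CPM. Acaa1b was higher in every later library without reaching 1.5-fold, and Acaa1a was below fed at 4 and 8 h. Of the 90-base stretches within the last 500 bases of GENCODE M21 transcripts, 16.0% of those of Acaa1a occurred in Acaa1b and 23.4% of those of Acaa1b in Acaa1a. How the counting divided reads between them is not stated in the labels or headers, so their separate levels are uncertain.

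Of 22 other peroxisomal genes, 17 passed the minimum at 24 h, of which 6 were at least 1.5-fold higher than fed and 1 lower, against 17.1% and 20.2% of all genes. Acot3 and Acot4 passed only through fasted libraries. The acyl-CoA thioesterase Acot3 was at 7.86, 11.6, 6.21, 30.1 and 137 CPM and Acot4 at 40.7, 63.1, 45.3, 91.0 and 174 CPM, both highest at 24 h. Hacl1, a lyase for branched and hydroxylated chains, was at 111, 162.5, 149, 289.6 and 248 CPM. In the opposite direction Nudt7, a hydrolase of coenzyme A in peroxisomes, was at 639, 295, 209, 335 and 98.6 CPM, so that its level at 24 h was 6.48-fold under that of the fed library. Acot3 and Nudt7 had the largest differences of this list in the 2 directions.

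The uptake and activation genes diverged at 8 h. Acsl1, the main long-chain acyl-CoA synthetase of liver, was at 936, 1250, 1059, 1606 and 1437 CPM, above fed in each fasted library and highest at 16 h. Slc27a2 (chr2:126552407-126588243), a fatty acid transporter and very long chain acyl-CoA synthetase, was at 743, 567, 275, 852 and 918 CPM. Its level at 8 h was 2.70-fold under fed, with a log2 ratio of -1.43 (95% interval -1.47 to -1.40), and at 16 and 24 h it was above fed. With cells of 0 to 30% mitochondrial UMIs the 24 h log2 ratio was -0.05 in place of 0.30. The minimum lay at 8 h, and the 4 h library was intermediate. A pair of synthetases outside the 30 were lower than fed in each fasted library: Acsl3 was at 94.98, 38.4, 13.7, 58.0 and 35.3 CPM and Acsl4 at 137, 93.4, 75.4, 76.0 and 45.5 CPM.

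Genes that set the supply of malonyl-CoA, the inhibitor of the carnitine shuttle, are named here because they differed by 2-fold from fed. Their differences are therefore not compared in size with those of the 30. Acaca, the cytosolic acetyl-CoA carboxylase, was at 277, 52.8, 37.5, 50.8 and 46.8 CPM. Its log2 ratios to fed were -2.39, -2.88, -2.44 and -2.56, so that most of the difference was already present at 4 h. Acacb, the carboxylase at the mitochondrial surface, was at 64.7, 45.5, 91.1, 16.3 and 11.3 CPM, above fed at 8 h and far below it at 16 and 24 h. Of 22 other mitochondrial genes, 14 passed the minimum at 24 h, of which 3 were at least 1.5-fold higher and 5 lower, against 17.1% and 20.2% of all genes. Acad11, a dehydrogenase of long chains, was at 179.5, 264, 247, 256.1 and 366.5 CPM, and Acad8, which acts on a product of valine breakdown, at 35.7, 52.3, 75.9, 46.0 and 47.9 CPM. Acad8 passed the minimum only through the 4 and 8 h libraries.

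Among 15 other genes known as PPARα targets, 8 passed the minimum at 24 h, of which 5, Angptl4 included, were at least 1.5-fold higher and none lower, against 17.1% and 20.2% of all genes. At 4 h 8 had passed, with a median log2 ratio of -0.44, of which 2 were at least 1.5-fold higher and 3 lower, against 13.8% and 16.3%. Angptl4, which passed only through fasted libraries, is a secreted inhibitor of lipoprotein lipase and was at 9.41, 130.4, 334, 79.2 and 136 CPM, with log2 ratios to fed of 3.79, 5.15, 3.07 and 3.85. The fatty acid ω-hydroxylases Cyp4a10 and Cyp4a14 were at 414, 227, 480.0, 370.0 and 1645 CPM and at 726.5, 408, 1089, 1154 and 3274 CPM. Angptl4 was highest at 8 h, whereas both hydroxylases were below fed at 4 h and highest at 24 h. Acot1, a cytosolic thioesterase, was at 2.75, 43.4, 50.6, 31.7 and 31.5 CPM, and near-identical copies could share its reads. It passed the minimum only through the 8 h library. Retsat, a retinol saturase, was at 346, 269.7, 298.5, 344 and 897 CPM, and G0s2, an inhibitor of adipose triglyceride lipase, at 119.5, 53.8, 62.0, 129.8 and 249 CPM. The known targets therefore did not peak together: 8 h was the maximum of Angptl4 and Pex11a, 16 h of Crot and Acsl1, and 24 h of Cpt1a and the hydroxylases.

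Successive libraries differed unevenly. From 4 to 8 h 1 gene of the 30 was at least 1.5-fold higher (Acads, against 5.47% of all genes tested) and 1 lower (Slc27a2, against 8.83%). From 8 to 16 h 6 were higher, namely Crot, Slc27a2, Bdh1, Acat1, Acadl and Acsl1, against 26.2% of all genes, and 3 were lower, namely Acads, Acaa2 and Pex11a, against 21.8%. With TMM scaling the 8 to 16 h step gave 4 higher and 5 lower, against 17.6% and 28.7% of all genes. From 16 to 24 h 4 were higher, namely Etfb, Eci1, Acads and Acadvl, against 18.5%, and Crot was lower, against 19.5%. On the CPM scale the share of the 30 genes was below that of all genes at each of the 3 steps. It was above for higher genes from 16 to 24 h with median-of-ratios scaling (7 genes, against 22.4%) and with cells of 0 to 30% mitochondrial UMIs (8 genes, against 25%). From 4 to 8 h it was above with mitochondrial UMIs in the denominator (4 genes higher, against 11.9%), and for lower genes with cells of 0 to 30% (4 genes, against 11.9%) and per-cell means (3 genes, against 9.78%).

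Per cell, the mitochondrial genes took a larger share in the 24 h library. After each hepatocyte had been thinned to 1000 nuclear-encoded UMIs, with 0, 4, 25, 117 and 0 shallower cells left out, the 18 genes together gave a mean of 3.56, 4.11, 4.27, 4.16 and 5.42 UMIs per cell in time order. The medians were 3, 4, 4, 4 and 5 UMIs, and the share of cells with none was 4.11% at 0 h and 1.01% at 24 h. The 7 peroxisomal genes gave means of 1.45, 1.95, 2.04, 2.58 and 2.32 UMIs, with 25.5% of cells at none at 0 h and 11% at 16 h. The largest mean was at 24 h for the first set and at 16 h for the second. In cells of 5 to 30% mitochondrial UMIs the 24 h means were 5.08 and 2.25. The variance over the mean of the mitochondrial set was 1.01 to 1.28 before 24 h, 1.44 at 24 h and 1.3 in the 24 h cells of 5 to 30%, where a value of 1 is that of random sampling with equal levels in every cell.

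**Figure D3:**
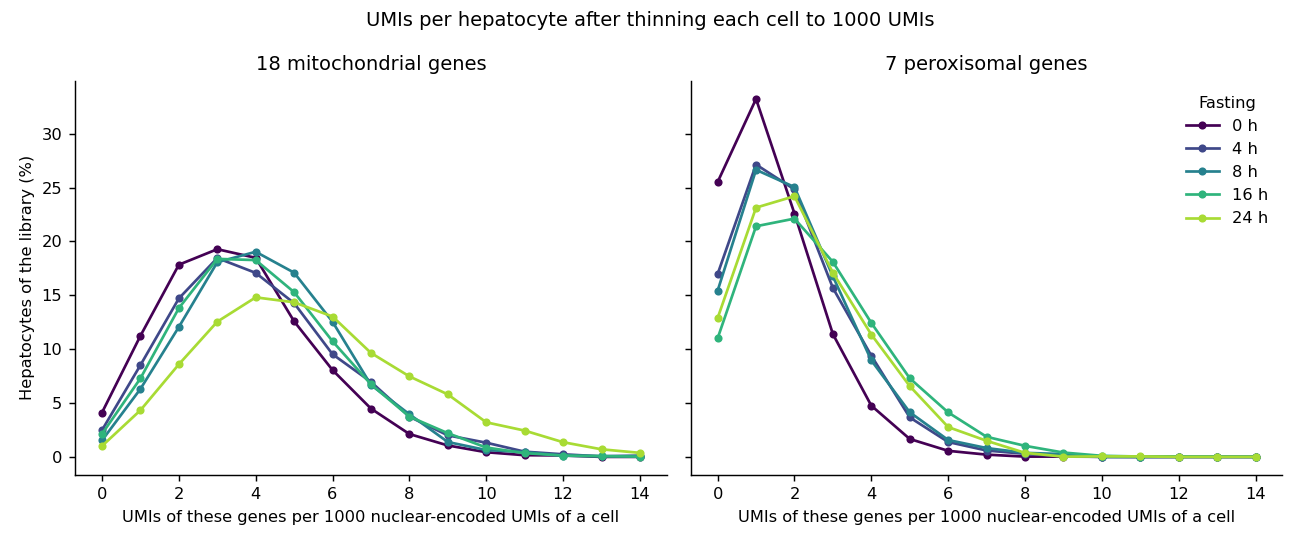
Share of hepatocytes (%) by the number of UMIs from the 18 mitochondrial genes (left) and the 7 peroxisomal genes (right) after thinning to 1000 UMIs, 1 line per library, drawn up to 14 UMIs. The 24 h line lies to the right of the others on the left panel, with a median of 5 UMIs against 3 at 0 h.

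Shares of cells with a UMI were set against endothelial barcodes of the same library, thinned alike. At 0 h Acsl1 was found in 58.1% of hepatocytes (57.0% to 59.2%) and in 15.6% of 141 endothelial barcodes (10.0% to 22.7%). Slc27a2 was found in 51.1% and 9.22%. The whole interval in hepatocytes lay above that in endothelial barcodes for 5 genes at 0 h, namely Cpt1a, Ehhadh, Crot, Acsl1 and Slc27a2. For the other 25 the intervals overlapped or the hepatocyte share was lower, such as Acadm with 28.6% in hepatocytes and 24.8% (17.9% to 32.8%) in endothelial barcodes. Median nuclear-encoded UMIs before thinning were 4832 and 1718. At 16 h, with only 36 endothelial barcodes, 4 genes stood above in this way, namely Echs1, Acaa2, Acsl1 and Slc27a2. Crot, at its maximum, was found in 58.3% of hepatocytes and in 41.7% (25.5% to 59.2%) of these barcodes, so that the intervals overlapped. Without thinning, Acsl1 was found in 90.6% of hepatocytes and Acadm in 71.3%.

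Zonation along the lobule was described by ordering the hepatocytes of each library from Cyp2f2, a marker of the portal side, to Cyp2e1, a marker of the central side, and cutting the order into 3 equal parts. These parts are ranges of a score and not positions measured in tissue. By construction Cyp2e1 differed between the parts, with 4.57 CPM on the portal side of the fed library and 5286 CPM on the central side. Most of the 30 genes leaned to the central side, by small amounts. The median log2 ratio of central to portal was 0.16, 0.28, 0.13, 0.27 and 0.10 in time order, against 0.06, 0.06, 0.05, 0.10 and -0.14 over all genes tested. Of the 29 genes that passed the minimum in all 5 libraries, 14 were higher in the central part each time and none in the portal part, against 20.4% and 15.2% of the 2104 genes that passed in all 5. The count depended on the axis. On an axis built from landmark genes Cpt2, Acads, Hadh, Eci1 and Etfa, among the 14, had ratios of -0.01 to -0.06 at 0 h. Acadm and Hsd17b4, also among them, had -0.06 and -0.01 at 24 h.

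At least 1.5-fold higher in the central part were 2, 6, 1, 4 and 8 genes in time order, against 4.00%, 6.68%, 3.41%, 5.81% and 17.2% of all genes tested. At 0 h these were Acaa1b and Bdh1, at 8 h Acaa1b, and at 16 h Acaa1a, Acaa1b, Bdh1 and Pex11a. No gene was at least 1.5-fold higher in the portal part in any library (1.61%, 4.07%, 1.48%, 2.61% and 8.14% of all genes). As a mean of per-cell CPM, Cpt1a, Slc25a20, Acsl1 and Slc27a2 were so at 24 h (34.2% of all genes), and with the first and last of 5 parts Cpt1a and Slc25a20 (15.3%). Central cells had fewer UMIs, with medians of 3220, 3087, 11112, 3893 and 3020.5 against 5701, 18951.5, 15590, 4320.5 and 11156 in portal cells. Among hepatocytes of at least 3000 UMIs the median ratio was 0.16, 0.22, 0.12, 0.24 and 0.15, and the counts were 0, 6, 1, 2 and 2, against 1.89%, 4.95%, 3.08%, 4.68% and 5.22% of all genes.

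**Figure D4:**
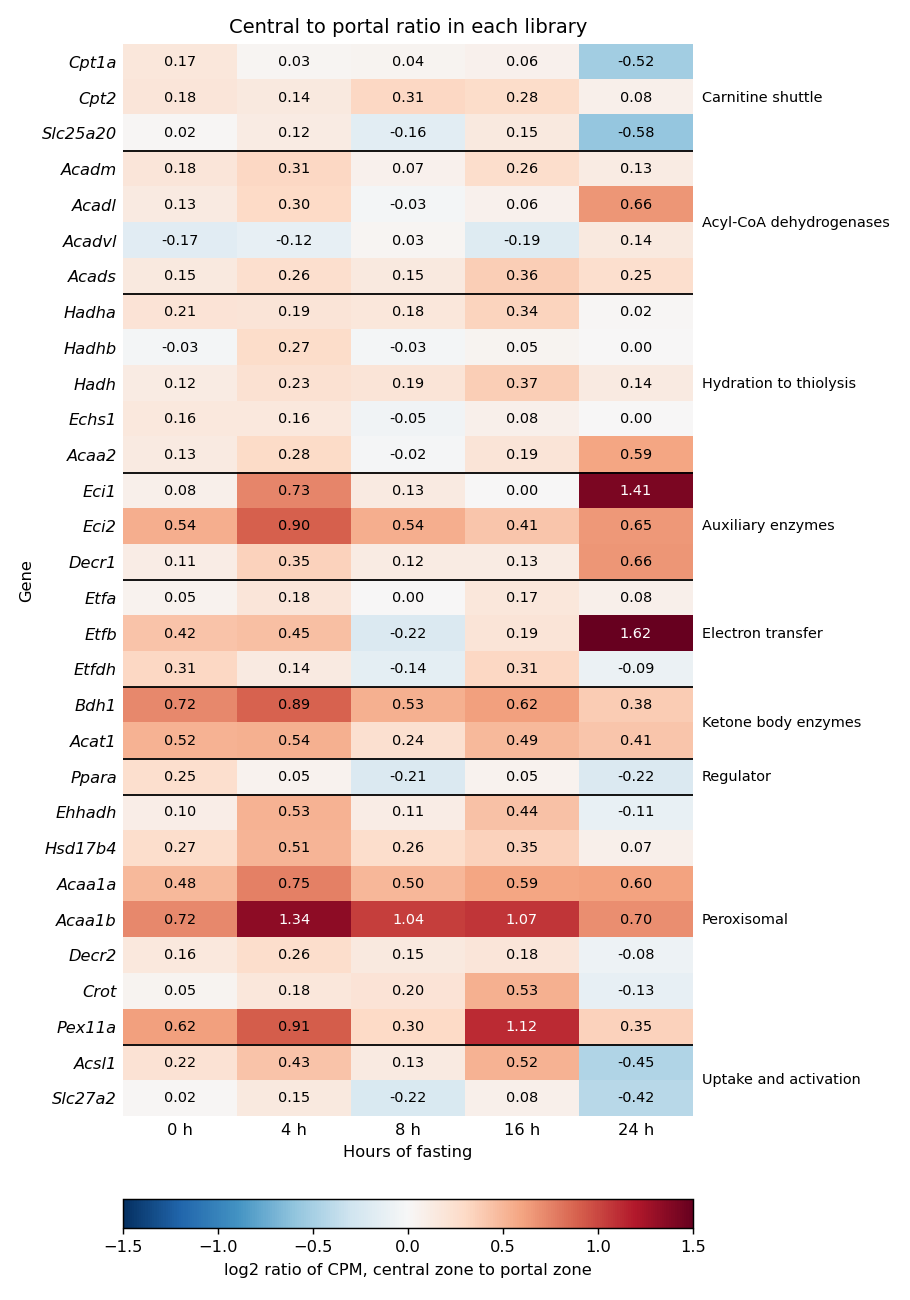
log2 ratio of CPM, central to portal part, for the 30 genes (rows, by role) in each library (columns), with red for higher in the central and blue for higher in the portal part. Acaa1b, Bdh1, Acat1, Eci2, Acaa1a and Pex11a are red in every column, and the 24 h column holds both the highest (Etfb, 1.62) and the lowest value (Slc25a20, -0.58).

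Acaa1b was the one gene at least 1.5-fold central in every library, with log2 ratios of 0.72, 1.34, 1.04, 1.07 and 0.70 in time order. At 4 h it was at 417 CPM in the portal, 547 in the middle and 1054 in the central part. Its copy Acaa1a had ratios of 0.48, 0.75, 0.50, 0.59 and 0.60. Pex11a had ratios of 0.62, 0.91, 0.30, 1.12 and 0.35 in time order. At 0 h Pex11a was under 50 CPM in both outer parts and was not counted, and at 16 h it passed only through the central part, at 103 CPM there against 47.5 CPM on the portal side. Over the peroxisomal genes the median was 0.21, 0.525, 0.26, 0.53 and 0.07 in time order, against 0.14, 0.24, 0.04, 0.18 and 0.13 over the 18 mitochondrial genes. With cells of at least 3000 UMIs no gene reached 1.5-fold at 0 h, Acaa1b included, and with cells of 5 to 30% mitochondrial UMIs its 24 h ratio was 0.42.

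The ketone body enzymes were central as well. Bdh1 had log2 ratios of 0.72, 0.89, 0.53, 0.62 and 0.38, and at 0 h its levels were 66.3, 70.1 and 109 CPM from portal to central. Acat1 had ratios of 0.52, 0.54, 0.24, 0.49 and 0.41. Eci2 was the most central of the 18 genes grouped here as mitochondrial at 0, 4, 8 and 16 h. Its ratios in time order were 0.54, 0.90, 0.54, 0.41 and 0.65.

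Cpt1a showed little gradient before 24 h on summed counts. It had ratios of 0.17, 0.03, 0.04, 0.06 and -0.52, and its levels at 16 h were 311, 311 and 324.5 CPM. Of the other shuttle genes, Slc25a20 had 0.02, 0.12, -0.16, 0.15 and -0.58 and Cpt2 0.18, 0.14, 0.31, 0.28 and 0.08. As a mean of per-cell CPM the 4 h ratios of Cpt1a and Slc25a20 were -0.44 and -0.30. Ppara had ratios of 0.25, 0.05, -0.21, 0.05 and -0.22, of either sign and small, and 0.01 at 24 h with cells of 5 to 30% mitochondrial UMIs. Crot had ratios of 0.05, 0.18, 0.20, 0.53 and -0.13: its 16 h maximum was present in all 3 parts, at 861, 909.7 and 1246 CPM. Acadvl, with ratios of -0.17, -0.12, 0.03, -0.19 and 0.14, was the one gene higher in the portal part at 4 and 16 h.

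At 24 h Etfb and Eci1 had the highest ratios of any library. In this library 9 genes were higher in the portal part, as many as at 8 h, and the median of all genes was -0.14. Etfb was at 247, 313 and 761 CPM from portal to central, a log2 ratio of 1.62 (95% interval 1.56 to 1.68). Eci1 was at 108, 125 and 287 CPM, a ratio of 1.41 (95% interval 1.32 to 1.51). Of the 9, Cpt1a, Slc25a20, Acsl1 and Slc27a2 had the lowest ratios, -0.52, -0.58, -0.45 and -0.42. The central part of this library held many cells with few mitochondrial UMIs: 33.7% of them had 2 to 5%, against 0.46% in the portal part, and in the central parts of the other libraries 0.89% to 18%. Cyp2e1 was also low in this library, at 478 CPM over all hepatocytes against 1412 CPM in the fed library. In its central part 21.5% of cells had no Cyp2e1 UMI and 30.2% had no Cyp2f2 UMI. This part began at a score of -2.55, so that cells with neither marker fell in it by construction. The part of such cells in the 24 h ratios was not tested.

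With cells of 5 to 30% mitochondrial UMIs only, most of the 24 h ratios were smaller in size, in both directions. Those of Pex11a, Hsd17b4, Hadh, Hadha, Hadhb, Bdh1 and Echs1 were larger in size. Etfb had 0.92 and Eci1 0.72, and they were then the only 2 genes at least 1.5-fold central, against 4.13% of all genes. Cpt1a, Slc25a20, Acsl1 and Slc27a2 had -0.19, -0.20, -0.17 and -0.17. The counts at 0, 4, 8 and 16 h were 2, 6, 1 and 4 under both limits, against 2.62%, 5.50%, 3.18% and 5.74% of all genes with 5 to 30%. At 4 h the genes differed: Eci1 was no longer among the 6 (0.52 in place of 0.73) and Ehhadh was (0.59 in place of 0.52). At 24 h Ehhadh and Decr2 had 0.07 and 0.07 in place of -0.11 and -0.08. The central to portal ratios of Etfb and Eci1 at 24 h thus remained above 1.5-fold with this limit, and those of the other 6 genes did not. The 24 h ratios of Bdh1 and Pex11a were 0.39 and 0.45, near the 0.38 and 0.35 found with the wider limits.

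**Figure D5:**
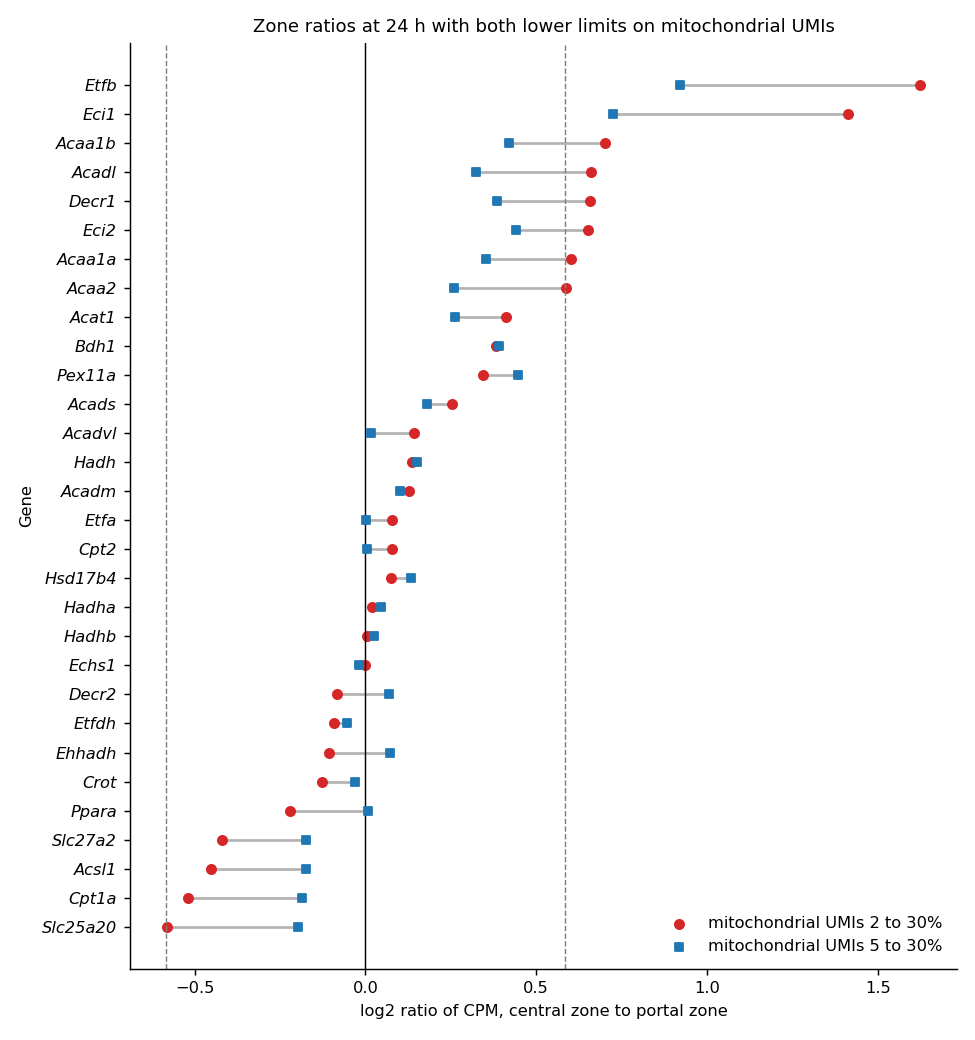
log2 ratio of CPM, central to portal part, at 24 h for each of the 30 genes with hepatocytes of 2 to 30% (circles) and of 5 to 30% mitochondrial UMIs (squares); dashed lines mark 1.5-fold. Most squares lie closer to 0 than the circles, and Etfb (0.92) and Eci1 (0.72) are the squares beyond the dashed line.

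Differences from fed were present in both outer parts of the lobule. The median log2 ratio to fed was 0.00, 0.14, 0.36 and 0.46 in the portal part and 0.13, 0.12, 0.45 and 0.52 in the central part at 4, 8, 16 and 24 h. At least 1.5-fold higher than fed in the portal part were 3, 8, 8 and 13 genes, against 15.3%, 19.9%, 10.4% and 17.2% of all genes tested there. In the central part there were 5, 6, 10 and 11, against 13.2%, 18.4%, 12.9% and 18.8%. Cpt1a was 1.96 above fed on the log2 scale in the portal part at 24 h and 1.27 in the central part. With cells of 5 to 30% mitochondrial UMIs Cpt1a was at 124.7 CPM (0 h) and 484.7 CPM (24 h) in the portal part. In the central part it was then at 144.1 and 426.1 CPM, against 140.4 and 338.7 CPM with 2 to 30%. The parts were cut anew in each library, and central Cyp2e1 was at 5286 CPM at 0 h and 2344 CPM at 24 h. Crot at 16 h was 1.66 above fed in the portal and 2.15 in the central part. Slc27a2 at 8 h was -1.33 and -1.58. No test of the difference between the parts was possible.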

How the data were processed

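UMI counts per gene and barcode were deposited by the authors as a matrix of 32285 genes and 10000 barcodes per library, made with Cell Ranger 6.0.1 on mm10, per the file headers and the submitters' processing notes. They are not normalized. The 30 genes and all lists were chosen with earlier results of these data known. Barcodes carrying at least 3 markers of another cell type at 0.5% or more of nuclear-encoded UMIs (erythroid 5%) were left out, 8 to 195 per library. No doublet caller was applied, and hepatocytes were not clustered. Counts were summed over hepatocytes and scaled to CPM. A gene entered a comparison at 50 CPM or more in either library. Ratios carry exact conditional binomial intervals, levels exact Poisson intervals and shares Clopper-Pearson intervals. With 1 library per group no test was run. Ratio and interval code was tested on simulated data. The text names all 30 genes, from each other list at most 6 of those that differed by 2-fold from fed at any time, by size of the 24 h ratio, and Angptl4. Some other genes that the rule allows are not reported here. Zones are equal parts of the hepatocytes ordered by Cyp2e1 against Cyp2f2. TMM factors came from edgeR 4.0.16 (R 4.3.3). The remaining code ran in Python 3.11.15 with scipy 1.17.1, pandas 2.3.3 and numpy 2.4.6. Alternatives were TMM, median-of-ratios, other denominators, minima and limits on cells, and other zone axes. The limit of 5 to 30% mitochondrial UMIs and the split by acute-phase share were added after seeing the data. Gene positions are from GENCODE M21, which held 32235 of the 32285 identifiers.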

Additional observations from a re-analysis of the deposited data

Results flagged for a closer look

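Levels in barcodes with under 2% mitochondrial UMIs, which were left out of every comparison, were at least 4-fold above those in the hepatocytes of the same library for Eci1 and Etfb at 4 and 24 h. Eci1 was at 421 CPM in these barcodes at 4 h, against 72.2 CPM in hepatocytes, and at 664 CPM at 24 h, against 150.3 CPM. Etfb was at 1314 CPM at 4 h, against 227 CPM, and at 1770 CPM at 24 h, against 376 CPM. In the other libraries Eci1 was at 199, 107 and 183 CPM in such barcodes at 0, 8 and 16 h, and Etfb at 873, 614 and 630 CPM. The 24 h levels and gradients of Etfb and Eci1, and gradients of other genes such as Slc25a20 and Cpt1a, also moved with the lower limit for mitochondrial UMIs, and the part of these barcodes in those values was not tested.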

How the results depend on the processing

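No paired analysis was possible because each time point was 1 library, and for the same reason no replicate could be left out. For the median log2 ratio of the 30 genes, the 4 h value of 0.01 became 0.12 with TMM, 0.12 with median-of-ratios scaling, -0.12 with all UMIs in the denominator, -0.06 without genes above 1% of UMIs, 0.25 as a mean over cells and 0.30 with cells of 0 to 30% mitochondrial UMIs. The 8 h value of 0.08 became 0.23 with TMM, 0.23 with median-of-ratios and 0.19 as a mean over cells. The 16 h value of 0.41 became 0.33 in the cells with the smaller acute-phase share. The 24 h value of 0.54 became 0.64 with TMM, 0.66 with median-of-ratios, 0.47 with all UMIs, 0.47 with at least 3000 UMIs, 0.61 with 0 to 30% and 0.47 with 5 to 30%. The step from 4 to 8 h (0.06) became 0.22 with all UMIs and -0.12 with 0 to 30%. The step from 8 to 16 h (0.28) became 0.11 with TMM, 0.13 with median-of-ratios and 0.21 with all UMIs. The step from 16 to 24 h (0.19) became 0.29 with TMM, 0.30 with median-of-ratios, 0.28 with 0 to 30% and 0.27 in the cells with the smaller acute-phase share. Genes at least 1.5-fold higher numbered 5 in place of 3 at 4 h with TMM, median-of-ratios or 0 to 30%, and 7 in place of 13 at 24 h with all UMIs. For the median central to portal ratio, the 4 h value of 0.28 became 0.18 as a mean over cells, and the 16 h value of 0.27 became 0.37 with the first and last of 5 parts of the axis. The 24 h value of 0.10 became -0.01 on an axis built from landmark genes and 0.00 with 5 to 20%. Causes were not tested. Genes at least 1.5-fold central numbered 8 at 24 h (17.2% of all genes), 9 with 5 parts (23.8%) and 3 on the landmark axis (8.15%), and at 4 h 11 as a mean over cells (16.6%) in place of 6 (6.68%). Small ratios changed sign under some settings. At 8 h Acadm went from -0.10 to 0.06 and Hadhb from -0.13 to 0.02 with TMM, and at 24 h Slc27a2 was -0.05 with 0 to 30%. With 0 to 30% Etfb had 0.54 at 4 h, and 1.45 at 24 h in place of 0.60. Of 1590 ratios of single genes to fed over the alternatives, 514 moved by more than their counting interval, as did 291 of 900 zone ratios. The 1590 include the settings that changed only the minimum CPM, which could not move a single ratio, so the share that moved is understated. Depth limits Pex11a and Bdh1 most, which had the fewest UMIs of the 30.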

Other observations

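Other members also stood apart in the barcodes with under 2% mitochondrial UMIs. Acaa2, a mitochondrial thiolase, was at 888, 1708, 553, 952 and 1944 CPM there at 0, 4, 8, 16 and 24 h, against 501 to 799.6 CPM in hepatocytes. Cpt1a was lower there in every library, at 45.4, 44.3, 52.9, 154 and 79.7 CPM. Crot was at 941 CPM in these barcodes at 16 h, near its 999 CPM in the hepatocytes, and at 277, 308 and 163 CPM at 0, 4 and 8 h.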
